A study of Homo sapiens with 5 samples.

Results

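The rows described here are 112 long non-coding RNA rows of a gene count table of HEK293 cells, a cell line from human embryonic kidney. They are the symbols that end in -AS and a number, 87 antisense rows, or that consist of LINC and a number, 25 rows named as intergenic, with at least 20 counts summed over 5 libraries. OIP5-AS1, EPB41L4A-AS1 and LINC00657 fit the symbol pattern and were set aside. The table holds 24497 gene rows, and 645 of them carry such a symbol. Of these, 530 stayed below 20 counts, 164 with no count and 366 with 1 to 19. The rows were chosen by their summed count, so their levels are given as a description. At the threshold, CCNT2-AS1, GNAS-AS1, NIFK-AS1 and RHPN1-AS1 stood just inside at 20 counts, and LINC00938, MAFG-AS1 and STARD7-AS1 just outside at 19.

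The assay reads the 5′ ends of polyadenylated transcripts, primed with oligo-dT and marked at the template switch, so a count stands for a fragment that begins at a transcript start. Batch B has 3 libraries (numbers 1, 2 and 3) and batch A has 2 (numbers 2 and 3), each amplified from the material of 100 HEK293 cells out of a lysate of 1000. All cells were grown in DMEM with glutamine and fetal calf serum, none was treated or edited, and the label text on preparation is the same for both batches. Counts on 52 rows of ERCC spike-ins, synthetic RNAs that the labels place in the lysis mix, were nevertheless 13, 1 and 19 in batch B libraries 1, 2 and 3, against 1785 and 2127 in batch A libraries 2 and 3. The labels do not say why, and the part of this difference in the results below was not tested. Gene counts per library were 373687 to 685181 in batch B and 686883 to 803168 in batch A. A row with 0 counts in a library may thus have up to 3.74 to 8.03 CPM, counts scaled to a total of 1000000 gene counts in each library, taking 3 counts as the limit. No label ties the libraries to separate cultures, so every p-value is read against library-to-library spread, and that spread may be technical only. Each library pools cells, so fewer cells with a transcript and less of it per cell cannot be told apart. All 8 markers of HEK293 cells had counts, together 316 to 545 per library in batch B and 491 to 588 in batch A. They were uneven, with 1473 counts over the 5 libraries for VIM and only 8 for PAX2. Of 3 rows that mark other cells, 2 had counts, together 5 to 13 in batch B and 3 to 9 in batch A. COL1A1, a marker of fibroblasts, had 34 of these counts over the 5 libraries, more than PAX2.

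Antisense RNAs are transcribed from the strand opposite to a named gene, and many begin at the same promoter as that gene and run the other way. Intergenic long non-coding RNAs (LINC) lie between genes. Many such transcripts are cleaved early by the Integrator complex or degraded by the nuclear exosome, and so remain scarce, whereas others are spliced, host small RNAs in their introns or carry short open reading frames that were recognised as proteins later. Their symbols date from the annotation of the count table. Current RefSeq names mark some rows as protein-coding genes or as hosts of small RNAs. They do not show which transcripts are cleaved, degraded or spliced.

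By current RefSeq names, 10 of the 112 rows are protein-coding genes, and these 10 rows held 2059 counts, or 21.4% of all counts on the 112 rows. They are LINC00493, now SMIM26, a small mitochondrial protein; LINC00998, now SMIM30, a small membrane protein; LINC00116, now MTLN or mitoregulin, a small protein of the inner mitochondrial membrane; NCBP2-AS2, CEBPZ-AS1, TOPORS-AS1, MMP24-AS1, LINC00094, RPA3-AS1 and LINC00984. A further 3 rows are hosts of small nucleolar RNAs, the guides of ribosomal RNA modification, and held 13.8% of the counts, nearly all of it FAM211A-AS1, now SNHG29. Another 12 rows are now named divergent transcripts, a name for transcripts that start beside a gene and run away from it, and held 8.47% of the counts. The name does not match the GENCODE 29 positions of all of them. The gene bodies of CHKB-AS1, CTBP1-AS2, RNASEH1-AS1 and TMEM161B-AS1 overlap those of their sense genes. The 74 rows that kept their symbol held 47.5%. The remaining rows are 2 microRNA hosts, 9 non-coding RNAs under other names, 1 transcribed pseudogene (TP73-AS1) and 1 row, HNRNPU-AS1, that RefSeq has merged into its sense gene HNRNPU. Among the 9, LINC00476 is now ERCC6L2-AS1 and LINC00909 is now ZNF407-AS1, both antisense by name.

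The promoter windows of 6 rows are shown because the results on level, spread between libraries and pairing turn on them. Windows run from 250 bases before to 50 bases after the RefSeq start on the plus strand of GRCh38.p14 and are written 5′ to 3′. For LINC00493, now protein-coding, only the 250 bases before the start are shown. Capitals mark matches, on either strand, to the CCAAT box (CCAAT or ATTGG), the GC box (GGGCGG or CCGCCC), the core of ETS factors (CCGGAAG or CTTCCGG) and the cAMP response element (TGACGTCA), and no 2 matches overlap. The window of FAM211A-AS1 lies at chr17:16438737-16439036, that of LINC00493 at chr20:18567182-18567431, that of EMC3-AS1 at chr3:9986643-9986942, that of ZNF503-AS2 at chr10:75401278-75401577, that of RAB30-AS1 at chr11:83071816-83072115 and that of TTN-AS1 at chr2:178522577-178522876.
FAM211A-AS1: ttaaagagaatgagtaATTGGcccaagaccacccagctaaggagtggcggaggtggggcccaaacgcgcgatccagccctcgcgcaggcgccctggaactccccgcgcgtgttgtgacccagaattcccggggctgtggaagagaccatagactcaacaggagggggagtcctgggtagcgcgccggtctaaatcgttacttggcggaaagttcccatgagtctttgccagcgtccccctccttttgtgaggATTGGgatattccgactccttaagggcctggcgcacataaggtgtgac
LINC00493: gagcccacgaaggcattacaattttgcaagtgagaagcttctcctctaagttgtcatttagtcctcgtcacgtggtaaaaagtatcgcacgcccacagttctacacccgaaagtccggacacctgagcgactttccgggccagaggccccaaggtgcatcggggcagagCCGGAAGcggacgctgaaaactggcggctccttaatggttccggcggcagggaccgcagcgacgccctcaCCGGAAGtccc
EMC3-AS1: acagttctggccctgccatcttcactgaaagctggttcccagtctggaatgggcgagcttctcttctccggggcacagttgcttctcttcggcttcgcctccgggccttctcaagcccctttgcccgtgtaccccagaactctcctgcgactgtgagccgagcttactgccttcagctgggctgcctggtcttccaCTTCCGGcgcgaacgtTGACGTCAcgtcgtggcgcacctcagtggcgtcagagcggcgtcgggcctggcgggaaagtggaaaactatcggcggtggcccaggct
ZNF503-AS2: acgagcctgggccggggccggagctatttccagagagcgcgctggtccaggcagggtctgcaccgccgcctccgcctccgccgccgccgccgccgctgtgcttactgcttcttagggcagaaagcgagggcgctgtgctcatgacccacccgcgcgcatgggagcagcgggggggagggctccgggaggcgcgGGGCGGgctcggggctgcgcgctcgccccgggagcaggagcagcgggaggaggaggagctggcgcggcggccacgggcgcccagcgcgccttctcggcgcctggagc
RAB30-AS1: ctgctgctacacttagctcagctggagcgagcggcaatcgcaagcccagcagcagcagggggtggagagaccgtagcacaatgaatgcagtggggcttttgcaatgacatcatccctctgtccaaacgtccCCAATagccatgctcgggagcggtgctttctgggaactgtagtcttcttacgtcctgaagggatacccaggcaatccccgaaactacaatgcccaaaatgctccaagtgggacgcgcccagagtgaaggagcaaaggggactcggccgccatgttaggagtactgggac
TTN-AS1: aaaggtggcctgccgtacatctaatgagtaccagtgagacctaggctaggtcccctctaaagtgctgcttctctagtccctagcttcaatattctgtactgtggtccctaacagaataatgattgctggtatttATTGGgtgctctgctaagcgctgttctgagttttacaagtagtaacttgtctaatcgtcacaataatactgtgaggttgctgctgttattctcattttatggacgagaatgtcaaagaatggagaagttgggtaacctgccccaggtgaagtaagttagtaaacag
The window of FAM211A-AS1 holds 2 CCAAT boxes and no ETS core, and the 250 bases shown for LINC00493 hold 2 ETS cores and no CCAAT box. That of EMC3-AS1 holds 1 ETS core and 1 cAMP response element, that of ZNF503-AS2 holds 1 GC box at a GC content of 76.7%, and those of RAB30-AS1 and TTN-AS1 hold 1 CCAAT box each. The TTN-AS1 window stands apart in composition, with 43.0% GC and an observed over expected CpG ratio of 0.291.

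Windows were found for 94 of the 112 rows and were set beside all 27305 windows of the same RefSeq table. The ETS core was present in 26 of the 94 windows (27.7%) and in 10.7% of all windows. The GC box was present in 59.6% against 44.6%, the CCAAT box in 44.7% against 35.7%, and the site of NRF1, a regulator of genes for respiration, in 5.32% against 1.36%. The cAMP response element was present in 3.19% against 1.98%. The TATA box (TATAAA or TTTATA) went the other way, with 4 of 94 windows (4.26%) against 12%. The median GC content was 63.5% in the windows of these rows and 58.3% in all windows, and the CpG ratio exceeded 0.6 in 78.7% against 48.9%. The motifs rich in C and G were thus compared between sets of unequal base composition, and their share was not compared at equal composition. The 94 rows were also chosen for at least 20 counts, whereas the 27305 windows were taken whether or not their genes had counts. A trait of these rows and a trait of genes with counts in general cannot be told apart here, and this was not tested. Both windows of a pair of antisense row and sense gene were in the table for 65 pairs. In 23 of them the windows overlapped, and whether a motif match lies in the shared stretch was not checked.

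**Figure D1:**
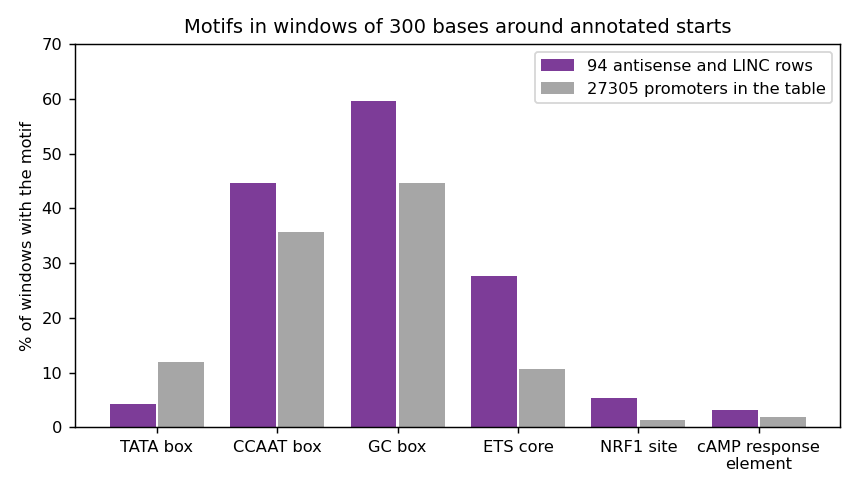
Share of promoter windows with at least 1 match to each motif on either strand, in percent, for 94 antisense and LINC rows (purple) and all 27305 windows of the RefSeq table (grey). The bars of the antisense and LINC rows are higher for every motif except the TATA box, at 4.26% against 12%.

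Together the 112 rows took a small part of the gene counts. Their share was 0.276%, 0.307% and 0.316% in batch B libraries 1, 2 and 3, against 0.2995% and 0.325% in batch A libraries 2 and 3. The batches overlapped, and the means were 0.2996% ± 0.021 in batch B (SD, n = 3) and 0.312% ± 0.0177 in batch A (SD, n = 2). Antisense rows made up 74.7% of these counts. Their share was 0.227% ± 0.0136 in batch B and 0.230% ± 0.0185 in batch A. LINC rows took 0.0725% ± 0.00819 in batch B and 0.0824% ± 0.000643 in batch A, and every batch B library was below both batch A libraries. The 95% exact binomial intervals of batch B library 3 (0.0743 to 0.0879%) and batch A library 3 (0.0758 to 0.0884%) overlapped over most of their length. Intervals cover counting error only.

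The median row had 44.5 counts over the 5 libraries, which is 14.1 CPM, whereas the median of all 10849 gene rows with at least 20 counts was 115 counts, or 36.7 CPM. Per kilobase of longest annotated transcript, the medians were 6.34 CPM for 109 rows with a length and 9.95 CPM for 10416 of all rows. Only 24 of the 112 rows reached 100 counts, and 63 stayed below 50. Even so, 109 of them (97.3%) had a count in every library, close to the 98.7% of all rows with at least 20 counts. The exceptions, with a count in 4 libraries, were LINC00969, RBM26-AS1 and EIF3J-AS1, named after their values were seen. The longest annotated transcript was 2317 bases at the median of these rows, against 3707.5 bases for all rows.

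FAM211A-AS1, the host of small nucleolar RNAs now called SNHG29, held 1235 counts, or 12.8% of all counts on these rows. Its level was 367, 349 and 381 CPM in batch B libraries 1, 2 and 3, against 437 and 418 CPM in batch A libraries 2 and 3. Every batch B library was lower than every batch A library, and the difference did not pass the test (log2 fold change -0.20, SE 0.11, adjusted p = 0.329 by edgeR). Per kilobase of its longest transcript it averaged 235 CPM, the second highest level of these rows. The 2 other hosts of small nucleolar RNAs were scarce, LINC00338 (SNHG20) with 45 counts and LINC00888 (SNHG33) with 44.

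LINC00493 (SMIM26) was second to FAM211A-AS1 by CPM. Divided by its length of 670 bases it averaged 311 CPM per kilobase, the highest of these rows on that scale. Its level was 153, 196 and 222 CPM in the batch B libraries, against 264 and 209 CPM in batch A. Within batch A library 3 stood below library 2 by a ratio of 0.794 (95% exact interval 0.640 to 0.985), and the batches overlapped. LINC00998 (SMIM30) had 88.3, 74.7 and 99.2 CPM in batch B and 97.5 and 132 CPM in batch A, with a log2 fold change of -0.37 (SE 0.18, adjusted p = 0.253). LINC00116 (MTLN) was the most even of these 3, at 64.2, 52.1 and 68.6 CPM in batch B and 71.3 and 68.5 CPM in batch A. The 10 rows that are now protein-coding together took 0.0602% ± 0.00928 of gene counts in batch B and 0.0701% ± 0.00337 in batch A. Batch B library 1, at 0.0495%, was the lowest, and the other libraries lay between 0.0652% and 0.0725%. Of the 9 that were tested, 0 passed, where 4.2% of all 9215 genes tested did. A fold change above 0 was found for 1 of the 9, NCBP2-AS2, and for 4648 of all genes tested, and 5 of the 8 rows below 0 changed sign under at least 1 alternative. NCBP2-AS2 had 58.9, 83.4 and 102 CPM in batch B and 62.6 and 78.4 CPM in batch A.

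Among LINC rows that are still non-coding, LINC01033 was at 53.5, 83.4 and 59.8 CPM in batch B and at 87.4 and 74.7 CPM in batch A. LINC00467 had 40.1, 29.5 and 43.8 CPM in batch B and 53.9 and 43.6 CPM in batch A. The batches of both rows overlapped. LINC01021, now PURPL, a transcript known to be induced by p53, had 24.1, 27.8 and 29.2 CPM in batch B and 13.1 and 28.6 CPM in batch A. LINC00263, now OLMALINC and named for oligodendrocyte maturation, ranged 3-fold or more within each batch, with 8.03, 27.8 and 16.1 CPM in batch B and 8.74 and 27.4 CPM in batch A. LINC00152 (CYTOR) and LINC00662, both studied in tumours, had only 27 and 38 counts over the 5 libraries. The other LINC rows named by rank, LINC00476, LINC00641 and LINC00094, averaged 27.9, 20.3 and 17.3 CPM over the libraries.

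EMC3-AS1, antisense to a subunit of the membrane protein complex of the endoplasmic reticulum, showed the widest gap between the 2 libraries of batch A among rows with at least 100 counts. It had 96.3, 99.0 and 97.8 CPM in the 3 libraries of batch B, against 34.9 CPM in batch A library 2 and 144 CPM in batch A library 3. The ratio of library 3 to library 2 within batch A was 4.13 (95% exact interval 2.65 to 6.71). Its sense gene EMC3 had 102, 99.0 and 112 CPM in batch B and 99.0 and 122 CPM in batch A, without such a gap. The log2 fold change of EMC3-AS1 was 0.10 (adjusted p = 0.865). It became 1.48 without batch A library 3 (adjusted p = 0.000232, a call) and -0.51 without batch A library 2 (adjusted p = 0.198). Over the 66 rows with a fold change the median ratio of batch A library 3 to library 2 was 1.07, and the interval excluded 1 for 6 rows, in 5 of them above 1. Those above 1 included TTN-AS1, EMC3-AS1, LINC00263 and TRIM52-AS1, and LINC00493 was below 1. The like count over all genes tested was not made, so 6 of 66 cannot be read as a trait of these rows. Some 95% intervals exclude 1 by counting error alone.

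**Figure D2:**
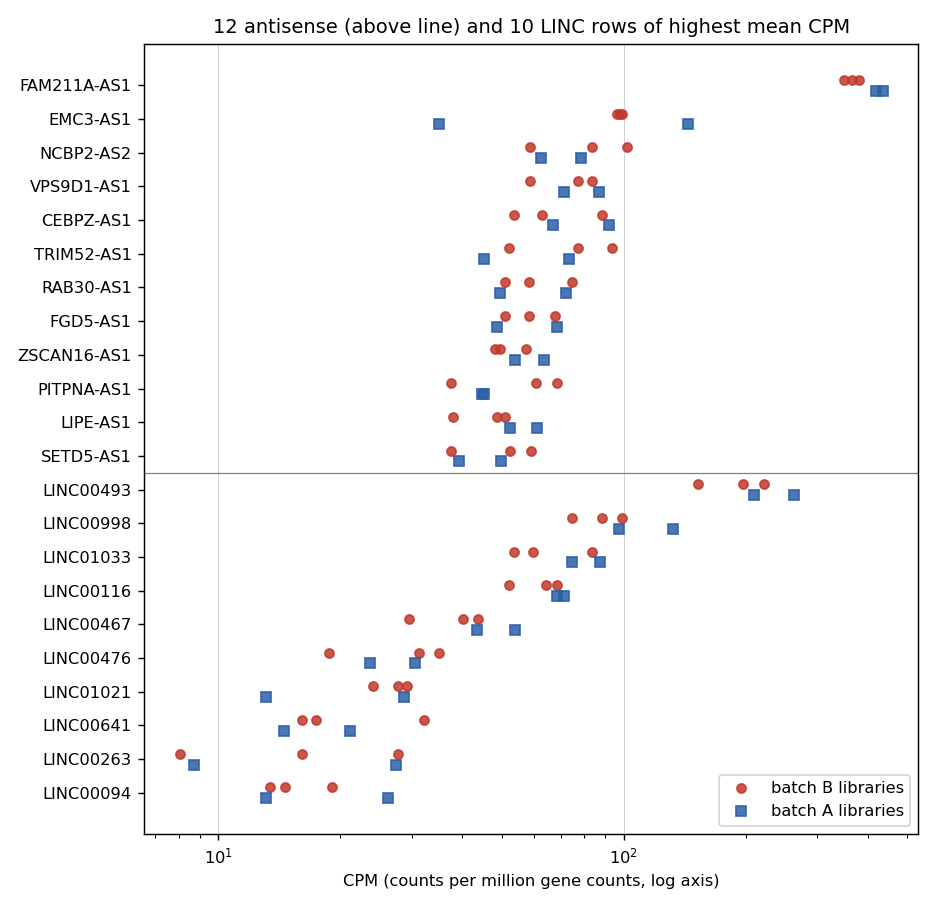
Level in CPM on a log axis of the 12 antisense rows (above the line) and 10 LINC rows of highest mean CPM, with 1 point per library, red circles for batch B and blue squares for batch A. FAM211A-AS1 lies at 349 to 437 CPM, and the 2 batch A libraries of EMC3-AS1 lie on either side of the 3 batch B libraries.

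The question put to the antisense rows was how their counts compare with those of the gene they are named after. A row of the sense gene was present for 81 of 87, and not for ENTPD3-AS1, HOXA-AS2, HOXB-AS3, HOXC-AS1, HOXD-AS2 and NUTM2A-AS1. The 2 genes lie on opposite strands in all 80 pairs with a position in GENCODE 29. The antisense row held 32.7% of the counts of the pair at the median, with quartiles of 13.1% and 70.9%, and had more counts than its sense gene in 30 pairs. The antisense rows were chosen for at least 20 counts and the sense genes were not, which raises these shares. The median over pairs was 35.3%, 32.6% and 40.9% in batch B libraries 1, 2 and 3, and 28.0% and 34.4% in batch A libraries 2 and 3. If counting did not use strand, reads from overlapping stretches of the 2 genes cannot be told apart, and the count table does not say whether it did.

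Where the 2 annotated starts lie within 1000 bases of each other (41 pairs), the median antisense share was 25.0% and the antisense row had more counts in 11 pairs. Where they lie farther apart (39 pairs), it was 49.2% and 19 pairs. This split uses GENCODE positions, and RefSeq places some starts differently. The RefSeq windows of CHKB-AS1, KTN1-AS1 and PCBP1-AS1, classed as farther apart, overlap those of their sense genes by 276, 214 and 39 bases. Their RefSeq starts thus lie within 1000 bases. A split by RefSeq starts was not tested. Of the 41 pairs with near starts, 18 do not overlap in their gene bodies, and their median share was 28.4%. Levels of the 2 genes of a pair were not closely related across the 81 pairs, with Pearson's r of -0.133 and Spearman's rho of -0.171 for log2(mean CPM + 1). These correlations run across genes measured in the same libraries, and the floor of 20 counts on one side alone shapes them. Per kilobase of longest transcript, the median antisense share over 80 pairs was 61.4%, with 43 pairs in which the antisense row was higher. Counts of fragments that begin at a transcript start need not grow with transcript length, so division by length can raise the share of the shorter transcript of a pair, and the counts themselves give 32.7%. Whether the counts themselves favour the shorter transcript of a pair was not tested.

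**Figure D3:**
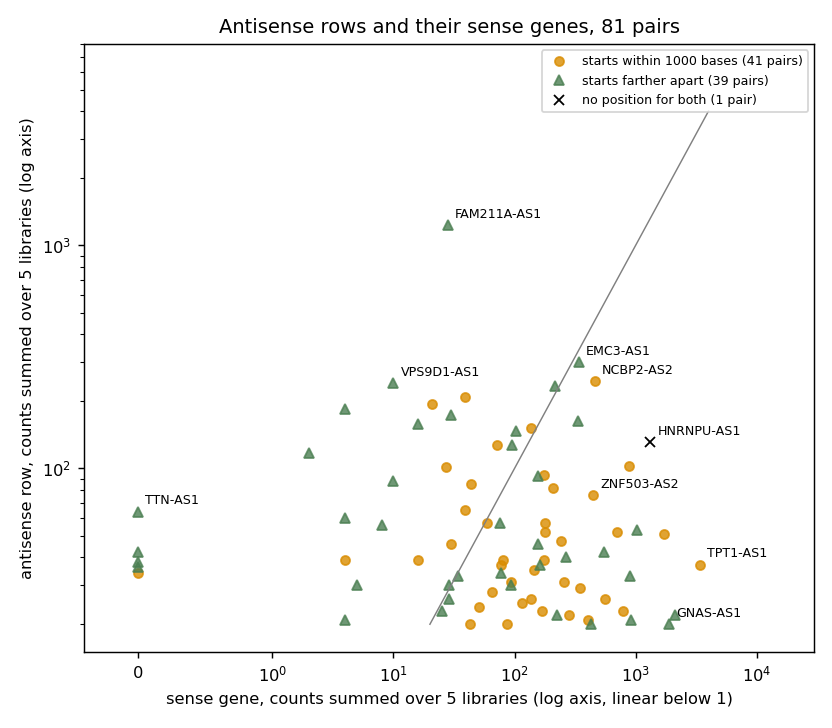
Counts of the antisense row (vertical, log axis) against those of its sense gene (horizontal, log axis, linear below 1), summed over 5 libraries, for 81 pairs. By GENCODE positions, circles are pairs with starts within 1000 bases and triangles are pairs with starts farther apart. The cross is the pair without a position, and the line marks equal counts. The 30 points above the line include FAM211A-AS1 with 1235 against 28 counts, and TTN-AS1 stands at 0 counts of its sense gene.

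The antisense row held over 90% of the counts in 13 pairs. TTN-AS1 lies opposite TTN, which encodes titin, the giant spring protein of muscle. TTN-AS1 had 9, 18 and 15 counts in batch B and 3 and 19 in batch A, whereas TTN had 0 counts in every library. The longest annotated transcript has 4592 bases for TTN-AS1 and 109224 bases for TTN. The assay primes at the polyadenylated end and counts starts, and whether the start of so long a transcript is reached was not tested. Taking 3 counts over the 5 libraries as the floor, TTN-AS1 was at least 21.3-fold higher in counts. In the same way CKMT2-AS1, opposite the gene of the creatine kinase of muscle mitochondria, had 42 counts where CKMT2 had 0. LBX1-AS1, opposite a homeobox gene of muscle precursors, had 34 where LBX1 had 0. ASB16 and ENTPD1 were the other sense genes at 0, beside 38 and 36 antisense counts. These 4 pairs were named after their values were seen.

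MMP24-AS1, now a protein-coding gene, held 98.3% of the counts of its pair with the membrane-bound metalloproteinase gene MMP24, 117 against 2 counts. FGD5-AS1 held 97.9% beside FGD5, an exchange factor for a small GTPase in endothelium, with 184 against 4. FAM211A-AS1 held 97.8% (95% exact interval 96.8 to 98.5%), VPS9D1-AS1 held 96.0% with 242 against 10 counts, and CHKB-AS1 held 93.8% with 60 against 4. LIPE-AS1, opposite the gene of hormone-sensitive lipase, held 90.8%. The lowest share of these 6 pairs in any library was 79.2%, for LIPE-AS1 in batch B library 1. Per kilobase of longest transcript, the share was 98.8% for FAM211A-AS1 and 94.1% for LIPE-AS1.

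RAB30-AS1 and TRIM52-AS1 start within 1000 bases of their sense genes and run away from them without overlap, so that their counts do not share a stretch of the genome with the sense gene. RAB30-AS1, now the divergent transcript RAB30-DT, held 90.2% (95% exact interval 85.5 to 93.8%) with 194 counts, against 21 for RAB30, a small GTPase of the Golgi. By library its share was 90.5%, 93.5% and 85.1% in batch B and 81.0% and 98.3% in batch A. TRIM52-AS1 held 84.2% with 208 against 39 counts, at 89.7%, 88.2% and 80.3% in batch B and 79.5% and 85.5% in batch A. The antisense row had more counts than its sense gene in all 5 libraries at both pairs, and the batches overlapped. Per kilobase, the shares were 98.8% for RAB30-AS1 and 96.9% for TRIM52-AS1.

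Near balance was seen at SETD5-AS1 (52.6%), CEBPZ-AS1 (52.2%) and EMC3-AS1 (47.0%). RefSeq now names SETD5-AS1 after another gene, as THUMPD3-AS1, and its share beside THUMPD3 was not computed. CEBPZ-AS1, now the protein-coding CEBPZOS, had 41.7%, 69.9% and 42.2% in batch B and 50.5% and 55.2% in batch A, with batch B library 2 the highest. NCBP2-AS2 held 34.8% of its pair with NCBP2, the small subunit of the nuclear cap-binding complex, at 34.4%, 36.1% and 43.5% in batch B and 26.7% and 33.7% in batch A. PITPNA-AS1 held 32.7% beside PITPNA, which carries phosphatidylinositol between membranes. Per kilobase the share was 46.1% for EMC3-AS1 and 54.5% for CEBPZ-AS1, while SETD5-AS1, NCBP2-AS2 and PITPNA-AS1 stood above their sense genes at 70.0%, 70.8% and 77.8%. ZSCAN16-AS1, opposite a zinc finger gene, held 85.2%.

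At the other end 17 antisense rows held under 10%. The lowest shares belonged to DYNLL1-AS1 (1.03%), GNAS-AS1 (1.06%) and TPT1-AS1 (1.08%), named after their values were seen, whose sense genes had 2103, 1872 and 3397 counts. GNAS encodes the stimulatory G protein subunit and its antisense row belongs to an imprinted locus. HNRNPU-AS1, with 131 counts beside 1326 for HNRNPU, held 8.99%. RPA3-AS1, now the protein-coding UMAD1, held 4.89% beside RPA3, the small subunit of the single-stranded DNA binding complex of replication.

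**Figure D4:**
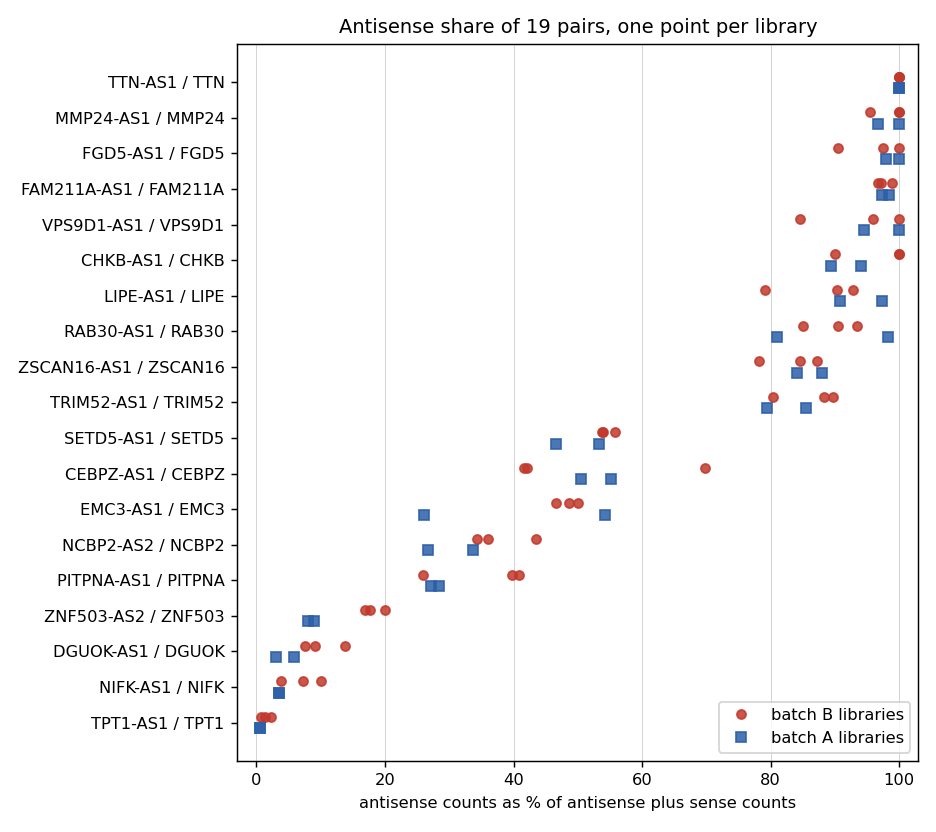
Antisense counts as a percentage of antisense plus sense counts for 19 pairs, with 1 point per library, red circles for batch B and blue squares for batch A. Shares run over the whole range from near 0 at TPT1-AS1 to 100% at TTN-AS1, and the batch B libraries of ZNF503-AS2 lie at 17.0 to 20.0% while its batch A libraries lie at 8.05 to 8.87%.

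Batch B was then compared with batch A for each row, in an edgeR quasi-likelihood fit over 9215 genes of the whole table. Of the 112 rows, 66 passed the filter on low counts. Of these 66, 1 rose and 0 fell at an adjusted p under 0.05, where 387 of 9215 genes passed, or 4.2% (2.15% higher and 2.05% lower). An unadjusted p under 0.05 was found for 7 of the 66 rows and for 16.4% of all genes tested. The libraries of the 2 batches did not overlap in CPM for 14 of 66 rows (21.2%), 7 in each direction, beside 31.3% of all genes tested (13.5% with batch B above and 17.8% with batch B below). Of 42 tested rows under 100 counts, 1 was called, where 1.17% of all such genes were, and of 24 rows with 100 counts or more 0 were called, where 5.84% were. The median log2 fold change was -0.05 over the 66 rows and 0.004 over all genes. DESeq2 called 0 of the 21 rows for which it gave an adjusted p, where it called 1.97% of all such genes. ZNF503-AS2 was not among these 21 rows. With limma-voom, ZNF503-AS2 alone was called, where 3.85% of all genes were.

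ZNF503-AS2, transcribed beside the gene of the zinc finger repressor ZNF503, was the row that rose. It had 26.8, 36.5 and 39.4 CPM in batch B libraries 1, 2 and 3, against 10.2 and 13.7 CPM in batch A libraries 2 and 3. All batch B libraries stood above both batch A libraries, on 10, 21 and 27 counts against 7 and 11. The log2 fold change was 1.55 (SE 0.41, adjusted p = 0.00797). ZNF503 itself had 131, 170 and 158 CPM in batch B and 116 and 141 CPM in batch A, with a log2 fold change of 0.29 (SE 0.15, adjusted p = 0.307). The starts of the 2 genes lie within 1000 bases and their bodies do not overlap. The antisense share of the pair was 17.0%, 17.6% and 20.0% in batch B and 8.05% and 8.87% in batch A. The call rests on few counts. It was lost without batch A library 2 (1.40, adjusted p = 0.132), without batch A library 3 (1.77, adjusted p = 0.0666), without batch B library 3 (1.46, adjusted p = 0.0560) and after thinning all libraries to the smallest (1.63, adjusted p = 0.118), with the direction kept each time.

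The other 3 antisense rows of zinc finger genes did not pass or were not tested. ZSCAN16-AS1 had a log2 fold change of -0.16 (adjusted p = 0.813), ZBTB11-AS1 one of -0.34 (adjusted p = 0.835), and ZNF674-AS1 was too low to test. Of 4 antisense rows of the HOX clusters, the homeobox genes that set position along the body axis, HOXB-AS3 alone was tested. It had 29.4, 29.5 and 36.5 CPM in batch B and 30.6 and 28.6 CPM in batch A, with a log2 fold change of 0.15 (adjusted p = 0.885). HOXD-AS2, HOXA-AS2 and HOXC-AS1 had 31, 28 and 22 counts over the 5 libraries.

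A pair of other rows with small p-values is given as values and was picked after those were seen. NUTM2A-AS1 had 16.1, 19.1 and 21.9 CPM in batch B and 34.9 and 42.3 CPM in batch A (log2 fold change -0.96, SE 0.35, adjusted p = 0.0991). NNT-AS1 had 26.8, 26.1 and 23.4 CPM in batch B and 5.82 and 14.9 CPM in batch A (log2 fold change 1.24, SE 0.46, adjusted p = 0.108). The batches did not overlap in either row.

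**Figure D5:**
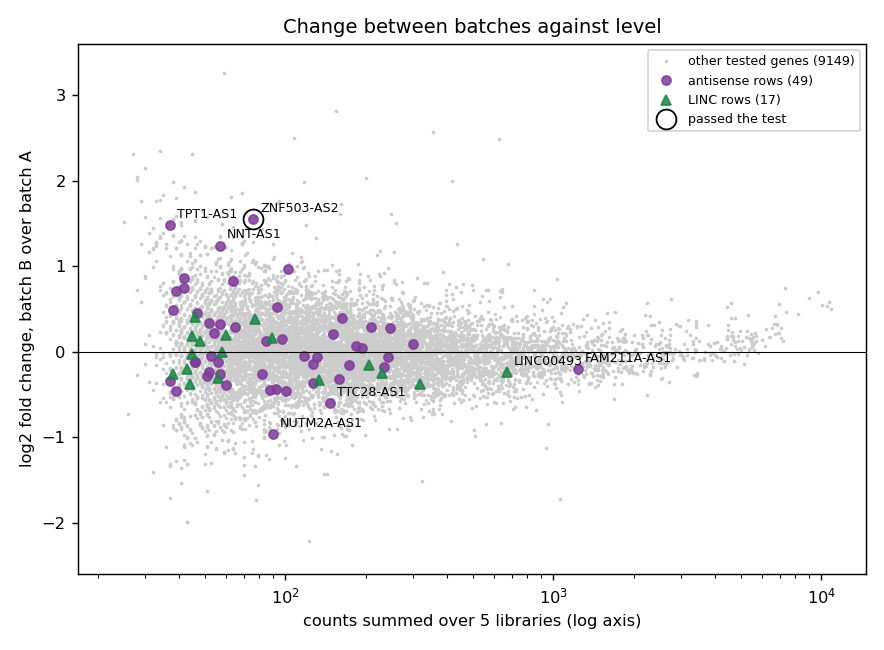
Log2 fold change of batch B over batch A against counts summed over 5 libraries (log axis) for 49 antisense rows (purple circles), 17 LINC rows (green triangles) and the other tested genes (grey), of which 1 lies outside the axis. The ring marks ZNF503-AS2 at 1.55, and the LINC rows lie between -0.38 and 0.41.

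Of the 81 sense genes, 55 were tested, and 0 rose and 2 fell (3.64%, beside 4.2% of all genes). DGUOK, the mitochondrial deoxyguanosine kinase, had 99.0, 153 and 161 CPM in batch B and 213 and 204 CPM in batch A (log2 fold change -0.52, SE 0.14, adjusted p = 0.00756). NIFK, a nucleolar protein that binds Ki-67, had 72.3, 88.6 and 146 CPM in batch B and 159 and 173 CPM in batch A (log2 fold change -0.60, SE 0.15, adjusted p = 0.00535). Every batch B library was below both batch A libraries at both genes, with batch B library 1 the lowest. DGUOK-AS1 had 8.03, 24.3 and 16.1 CPM in batch B and 13.1 and 6.23 CPM in batch A, and its log2 fold change of 0.86 did not pass (adjusted p = 0.443). NIFK-AS1 had 3, 4 and 4 counts in batch B and 4 and 5 in batch A, and was too low to test. Neither call held when batch B library 1 was left out (DGUOK -0.39, adjusted p = 0.0856, and NIFK -0.46, adjusted p = 0.0641) or batch A library 3 (-0.57, adjusted p = 0.0583, and -0.55, adjusted p = 0.142). The DGUOK call was also lost without batch A library 2 (-0.47, adjusted p = 0.153), and that of NIFK without batch B library 2 (-0.47, adjusted p = 0.141). RNASEH1, which encodes a nuclease that removes RNA from hybrids with DNA, had 56.2, 38.2 and 37.9 CPM in batch B and 49.5 and 90.9 CPM in batch A, and the batches overlapped (log2 fold change -0.73, SE 0.24, adjusted p = 0.0519). It passed with scaling to library totals and without batch A library 2, and was the 1 sense gene called without batch B library 1. RNASEH1-AS1 had a log2 fold change of 0.71 (adjusted p = 0.567).

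Both genes of a pair were tested in 29 pairs. The 2 fold changes pointed the same way in 10 of them, 5 higher and 5 lower in batch B, and opposite ways in 19, of which 11 had the antisense row higher and 8 the sense gene higher. Their correlation across the 29 pairs was -0.11 (Pearson) and -0.047 (Spearman), given as a description of genes in shared libraries. The antisense share did not overlap between batches in 19 of 81 pairs, with batch B above batch A in 13 and below it in 6. This is 23.5% of the pairs. Of all genes tested, 31.3% did not overlap in CPM, but that is an unlike measure, taken on single genes that passed the filter on low counts. The 5 pairs whose sense gene had 0 counts are at 100% in every library and cannot differ between batches. No like share over all genes stands beside the 13 and the 6.

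The machinery that removes such transcripts was looked at by its genes. Of 22 genes of the nuclear exosome and its adaptors, all tested, 0 rose and 1 fell (4.55%, beside 4.2% of all genes), and of 15 Integrator subunits 0 passed, with log2 fold changes of -0.37 to 0.39 and 0 at an unadjusted p under 0.05. The gene that fell was C1D, a cofactor that links RNA to the exosome, with 58.9, 60.8 and 74.4 CPM in batch B and 93.2 and 117 CPM in batch A (log2 fold change -0.66, SE 0.19, adjusted p = 0.0249). This call was lost without batch A library 3 (-0.49, adjusted p = 0.400) and without batch B library 1 or 2 (adjusted p = 0.0557 and 0.134). Across the exosome genes the log2 fold changes ran from -0.66 at C1D to 1.01 at EXOSC6, a subunit of the exosome ring, with a median of 0.03. An unadjusted p under 0.05 was found for 6 of the 22, beside 16.4% of all genes, and the batches did not overlap in CPM for 8 of the 22 (36.4%), beside 31.3%. EXOSC6 had 42.8, 48.7 and 20.4 CPM in batch B and 13.1 and 22.4 CPM in batch A (adjusted p = 0.100), and passed without batch B library 3.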

How the data were processed

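The authors deposited whole-number counts per gene symbol for 5 libraries, 1 column each, not normalized. Reads had been handled with STAR 2.4.0a and cutadapt 1.2.1 against hg19, per the submitters' processing notes. Which counter and annotation served, and whether strand was used or molecular identifiers collapsed, is not given in the sources used here. Identifiers that were not collapsed, and rows that share reads (overlapping genes, paralogs), make intervals and errors too small.

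CPM was computed from gene counts without the 52 spike-in rows. The batches were compared with edgeR 4.0.16 (R 4.3.3; TMM, filterByExpr, quasi-likelihood F test, batch as the only term, Benjamini-Hochberg over all genes tested), tested on simulated data. SE was taken from the log2 fold change and F. Where 1 batch A library is left out, the other is assumed to vary like batch B. DESeq2 1.42.0 and limma 3.58.1 were alternatives. Shares have exact Clopper-Pearson intervals at 95%.

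Names and promoter windows came from RefSeq GRCh38.p14, and lengths, strands and the positions of pairs from GENCODE 29. Neither is the build of the counts, so no gene coordinates are given. Named rows were those called, the 12 antisense and 10 LINC rows of highest CPM, the 6 highest antisense shares among pairs with at least 50 counts, rows on lists of studied or protein-coding genes, HOX and zinc finger antisense rows, and their sense genes. The rows and lists were chosen with earlier results of these data known. Column numbers only name libraries. The values of 1 row are not reported here.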

Additional observations from a re-analysis of the deposited data

How the results depend on the processing

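Of 42 named genes with 484 values under 13 alternatives, 28 kept the sign of their fold change throughout. ZNF503-AS2, the row called, got no adjusted p from DESeq2, so DESeq2 gave no verdict on it. The 1 call among the 112 rows was 0 with the DESeq2 Wald test and 0 after thinning, and 0 to 2 with 1 library left out. Calls among sense genes were 2, but 0 with DESeq2, 3 with library totals (RNASEH1 added) and 0 to 2 with 1 library left out, where RNASEH1 was called when library 2 of batch A or library 1 of batch B was left out. Calls among exosome and Integrator genes were 1, but 0 with DESeq2, 0 with all counted genes tested and 0 to 2 with 1 library left out, where EXOSC6 was added without batch B library 3. Over all genes, 387 were called, against 104 with DESeq2, 164 after thinning, 259 with all counted genes tested, 245 with length and GC trends removed and 138 to 333 with 1 library left out. The DGUOK, NIFK and C1D calls were also lost after thinning and with the length and GC trends removed. The cause was not tested.

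The median antisense share of 32.7% was 54.9% for 36 pairs with at least 50 antisense counts, 22.4% for 133 pairs with at least 10 and 61.4% per transcript length. The choice of threshold sets this value in part. With 1 library left out it was 31.5 to 34.7%. The difference between batches in the share of gene counts on the 112 rows, -0.0124 percentage points, was -0.025 to 0.000134 with 1 library left out.

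Fold changes that changed sign did not pass the test before. After thinning, LINC00116 was at 0.014, LINC00476 at -0.12, MMP24-AS1 at 0.25 and VPS9D1-AS1 at 0.069. With limma-voom, LINC00263 was at 0.079 and RPA3-AS1 at 0.00064. With length and GC trends removed, LINC00263 was at 0.059, MMP24-AS1 at 0.16 and RPA3-AS1 at 0.098. With 1 library left out, the ranges were -0.41 to 0.061 for CEBPZ-AS1, -0.51 to 1.48 for EMC3-AS1, -0.19 to 0.35 for FGD5-AS1, -0.66 to 0.28 for LINC00094, -0.53 to 1.04 for LINC00263, -0.20 to 0.24 for LINC00338 and -0.037 to 0.37 for LINC00476. They were -0.10 to 0.49 for LINC00641, -0.013 to 1.06 for LINC01021, -0.47 to 0.17 for MMP24-AS1, -0.16 to 0.34 for RAB30-AS1, -0.48 to 0.68 for RPA3-AS1 and -0.17 to 0.077 for VPS9D1-AS1.

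No paired analysis was possible because the deposited columns cannot be tied to the replicate numbers of the labels. Depth limits these results: at 20 to 50 counts over 5 libraries, 63 of the 112 rows allow only large changes to be seen, and 46 were too low to be tested.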

Other observations

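Below the threshold, the 530 rows with such symbols and fewer than 20 counts together held 1918 counts. They took 0.062% ± 0.00941 of gene counts in batch B (SD, n = 3) and 0.0584% ± 0.00788 in batch A (SD, n = 2). The means of the batches differed by less than either SD. The 3 abundant rows that were set aside did not pass the test between batches. LINC00657, now NORAD, a sponge of Pumilio proteins, had 166, 169 and 163 CPM in batch B and 160 and 147 CPM in batch A, and every batch B library stood above both batch A libraries (log2 fold change 0.14, adjusted p = 0.696 by edgeR). OIP5-AS1 had 115, 106 and 108 CPM in batch B and 93.2 and 106 CPM in batch A (log2 fold change 0.15, adjusted p = 0.744). EPB41L4A-AS1, a host of small nucleolar RNA, had 37.5, 60.8 and 36.5 CPM in batch B and 45.1 and 71.0 CPM in batch A (log2 fold change -0.35, adjusted p = 0.512).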
